A study of Mus musculus with 46 samples.

Results

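The genes described are 10 transcriptional targets of p53, namely Cdkn1a, Mdm2, Ccng1, Bax, Bbc3, Gdf15, Trp53inp1, Sesn2, Phlda3 and Eda2r. They were taken from the count table by gene name, which gave 10 of its 55359 genes, and each name stood in the table once. All 10 passed the filter on low counts in both sets of libraries. Messenger RNA of adult mouse hearts was counted in 46 libraries, made with 2 kits. Every mouse, controls included, carried 1 copy of the transgene Myh6MCM (Tg/0), a Cre recombinase made in cardiomyocytes and switched on by tamoxifen, and every mouse had received tamoxifen at 6 to 8 weeks of age. It was injected as 100 uL at 4 mg/mL on 4 consecutive days. The arms therefore differ in their alleles of Lmna, the gene of the A-type lamins that line the nucleus, and of cGas, which encodes a sensor of cytosolic DNA. Cells of the heart other than cardiomyocytes keep their Lmna alleles where Cre is not made.

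The NEBNext set held 26 libraries that cover whole transcripts. It compared floxed Lmna F/F hearts with Lmna +/+ hearts at 1 week after tamoxifen (4 and 5 libraries), at 11 days (2 and 3) and at 2 weeks (5 and 7). The cGas genotype is not given for these mice. The QuantSeq set held 20 libraries of a tag near the transcript's 3' end, all at 2 weeks. It compared Lmna F/F with Lmna F/+ hearts, 6 and 6 libraries in cGas +/+ mice and 4 and 4 in cGas null/null mice. Total counts were 8477358 to 25856892 per NEBNext library and 22099181 to 33993289 per QuantSeq library. CPM here are read counts scaled to the total of the library after TMM scaling. Lmna itself was lower in F/F than in +/+ hearts at 1 week (mean 33.3 against 59.0 CPM, exact permutation p = 0.01587, two-sided). At 2 weeks Lmna was lower too (85.2 against 113, exact p = 0.0101). It did not separate the groups at 11 days (58.4 against 92.2; exact p = 0.4, where the smallest possible is 0.1) or in QuantSeq (20.5 against 22.0 with cGas, exact p = 0.5043). The same holds without cGas (22.2 against 23.7, exact p = 0.6857). Lmna RNA from cells without Cre is counted too, and a 3' tag may lie outside the floxed part, so the QuantSeq value does not check those labels.

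The transcription factor p53 is held low in resting cells by Mdm2, a ubiquitin ligase that is itself a p53 target, and accumulates when DNA is damaged or the cell is otherwise stressed. It binds a response element built from a pair of decamers and raises genes that stop the cell cycle, promote cell death, adjust metabolism and restrain p53 itself. Several of the 10 genes have other inducers, such as the integrated stress response for Gdf15 and Sesn2.

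Promoter sequence was looked at to show which of the genes carry a p53 decamer close to their start. RefSeq windows of 300 bases, from 250 before to 50 after an annotated start on mouse build GRCm38.p6, were found for 9 of the 10 genes (13 windows). The counts rest on another build, mm39, and were not joined to these coordinates. An exact match to the p53 decamer consensus, which reads alike on both strands, stood in the windows of 4 genes, that is in 4 of 13 windows (30.8%), against 8.36% of the 32851 windows of all genes. An array of 2 adjoining decamers with at most 1 mismatch in all stood in 2 of the 13 windows (15.4%), against 0.0883% of all windows. Counted by gene, the shares were 44.4% against 9.55% for the decamer and 22.2% against 0.107% for the array. The 10 genes were listed as p53 targets, so a higher share than over all genes may come from that choice and is no separate result. The 4 genes with a match are printed with 20 bases on either side, on the strand of the gene. Capitals mark the exact decamers and, for Cdkn1a and Ccng1, the adjoining decamer of the array.
Cdkn1a, chr17:29090886-29090967, plus strand: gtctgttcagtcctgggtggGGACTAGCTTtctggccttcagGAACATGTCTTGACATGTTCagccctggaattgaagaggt
Mdm2, chr10:117710915-117710964, minus strand: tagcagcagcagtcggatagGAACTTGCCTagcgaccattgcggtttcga
Ccng1, chr11:40755442-40755501, minus strand: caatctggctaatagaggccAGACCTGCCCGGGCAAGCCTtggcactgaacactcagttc
Bax, chr7:45467070-45467119, minus strand: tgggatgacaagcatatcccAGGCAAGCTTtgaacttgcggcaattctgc
The array began 51 bases before the annotated start in Cdkn1a, in 1 of that gene's 2 windows, and 195 bases before it in Ccng1. The single decamers of Mdm2 and Bax began 186 and 201 bases before the start. A match describes letters and not a bound site, and p53 elements outside these windows were not searched. As the values below show, the genes with a match in the window and those that rose in the heart were not the same set. Of the 4, Cdkn1a and Mdm2 rose at 2 weeks and Ccng1 and Bax did not pass the test, while Gdf15, Phlda3 and Eda2r rose without a match in this window.

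At 2 weeks after tamoxifen, 6 of the 10 genes were higher in Lmna F/F than in +/+ hearts and 0 were lower (edgeR quasi-likelihood test, Benjamini-Hochberg adjusted p under 0.05 over 15627 genes). Over all genes tested, 16.2% passed as higher and 13% as lower. The 6 were Gdf15, Eda2r, Trp53inp1, Cdkn1a, Phlda3 and Mdm2, with fitted rises from 6.02-fold down to 1.37-fold. Fitted folds take account of sex and of sequencing pool, so they can differ from the ratio of the group means. Sex was uneven at 2 weeks, with 2 males and 3 females in F/F and 5 males and 2 females in +/+ libraries. The median log2 fold change of the 10 genes was 0.95, beside 0.04 over all genes. In 3 of them, Mdm2, Trp53inp1 and Eda2r, every F/F library lay above every +/+ library, as was so for 6.68% of all genes.

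**Figure D1:**
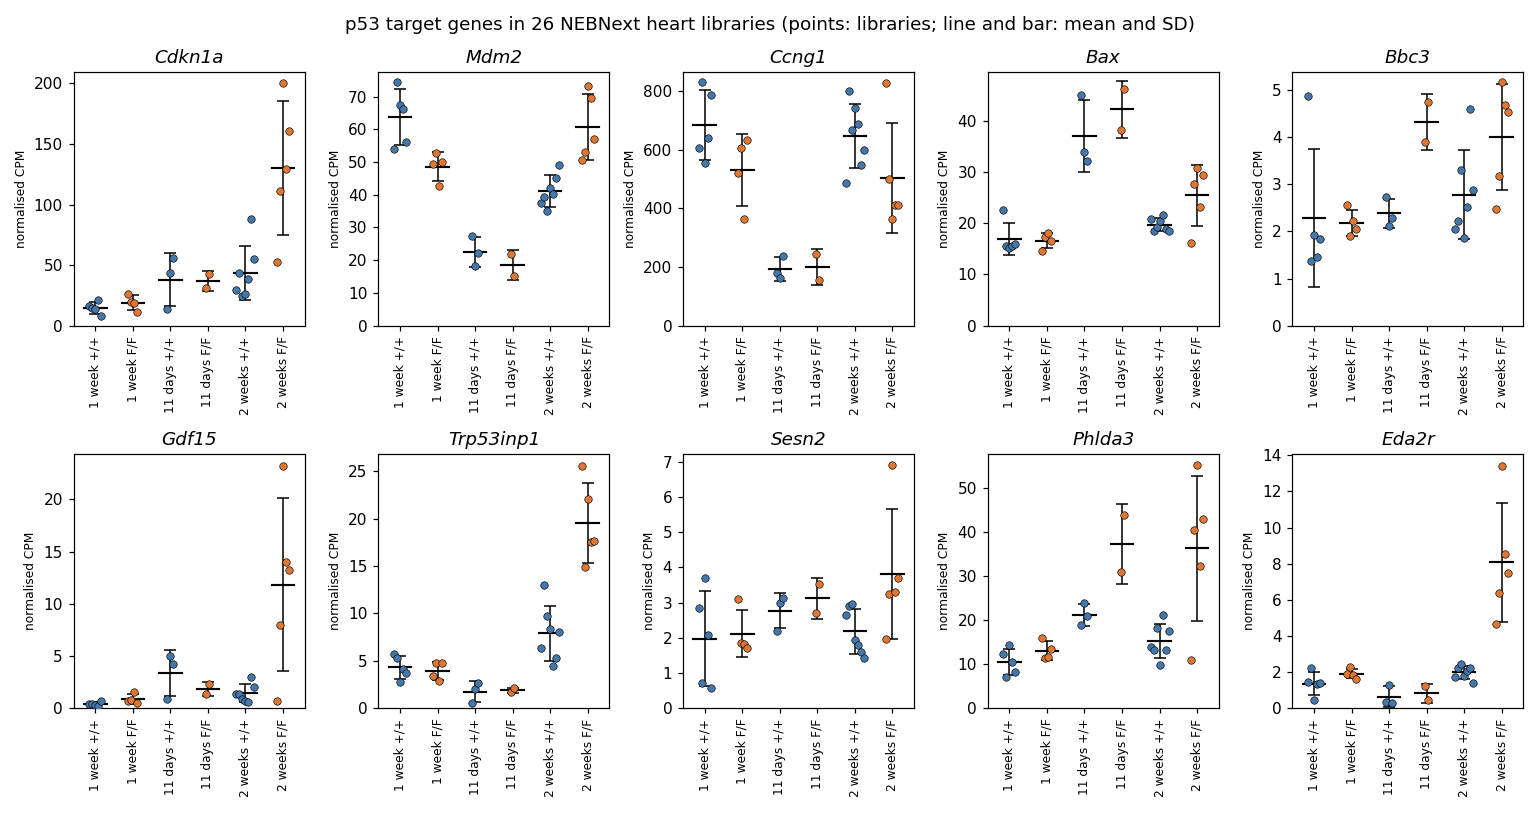
Normalised CPM (vertical axes, each from 0) of the 10 p53 target genes in the 26 NEBNext libraries, by time and Lmna genotype. Each point is a library, and lines and bars are the mean and SD. At 2 weeks the F/F points of Mdm2, Trp53inp1 and Eda2r lie above all 7 +/+ points, while for Gdf15 and Phlda3 the lowest F/F point lies among them.

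Cell cycle arrest is represented by Cdkn1a (ENSMUSG00000023067.15), which encodes p21, an inhibitor of cyclin-dependent kinases. Its normalised CPM in the 5 F/F hearts of 2 weeks were 52.3, 111, 200, 129 and 160.4. In the 7 +/+ hearts they ran from 24.7 to 88.1 with a median of 38.4. A single F/F heart, replicate 1, lay within the control range, and the 4 others lay above it. The fitted log2 fold change was 1.27 ± 0.29 (SE; adjusted p = 0.002006), a 2.41-fold rise. Within pool KIUC033 it was 1.24 (adjusted p = 0.08727) and within pool KIUC035 it was 1.19 (adjusted p = 0.05674), so the size held within each pool while the call did not.

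Ccng1 (ENSMUSG00000020326.8) encodes cyclin G1, which recruits phosphatase 2A to Mdm2. It was the most abundant of the 10, with 829.1, 500.1, 364, 412 and 411 CPM in the F/F hearts. The +/+ hearts ran from 487 to 799.7 with a median of 666. The level lay below the control range in 3 of the 5 F/F hearts and above it in replicate 1. A log2 fold change of -0.24 ± 0.18 (adjusted p = 0.3223) did not pass the test. Its sign depended on the scaling: with deposited TPM it was 0.04.

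Mdm2 (ENSMUSG00000020184.16), the ligase that targets p53 for degradation, had 50.6, 53.1, 73.3, 69.6 and 57.2 CPM in the F/F hearts. The +/+ hearts ran from 34.9 to 49.1 with a median of 40.2, so the groups did not overlap, by a narrow margin. Its log2 fold change was 0.45 ± 0.12 (adjusted p = 0.007296), the smallest of the 6 rises. It was 0.40 (adjusted p = 0.211) within pool KIUC033 and 0.47 (adjusted p = 0.1216) within pool KIUC035.

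Of the genes that promote or permit cell death, Bax (ENSMUSG00000003873.12) encodes a pore-forming protein of the mitochondrial outer membrane. It had 16.1, 27.6, 30.8, 23.2 and 29.5 CPM in the F/F hearts and 18.4 to 21.7 (median 19.4) in the +/+ hearts. Replicate 1 lay below the controls and the 4 others lay above them. The log2 fold change of 0.29 ± 0.15 did not pass the test (adjusted p = 0.1441). Without F/F replicate 1 it was 0.49 and passed (adjusted p = 0.009272). It also passed with the deposited TPM (0.54, adjusted p = 0.01683, pseudocount 1) and with library totals in place of TMM scaling (0.56, adjusted p = 0.0195).

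Bbc3 (ENSMUSG00000002083.14) encodes Puma, a BH3-only protein that neutralises the anti-apoptotic BCL-2 proteins. Its CPM were 2.47, 3.19, 5.17, 4.68 and 4.53 in the F/F hearts and 1.85 to 4.61 (median 2.53) in the +/+ hearts. The groups overlapped, and the log2 fold change was 0.23 ± 0.25 (adjusted p = 0.5194).

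Phlda3 (ENSMUSG00000041801.6) encodes a pleckstrin-homology protein that keeps Akt from the membrane. It had 10.9, 40.5, 55.3, 32.2 and 42.9 CPM in the F/F hearts and 9.77 to 21.1 (median 13.9) in the +/+ hearts. Replicate 1 lay within the control range and the other 4 were above all controls. The log2 fold change was 1.05 ± 0.27 (adjusted p = 0.004751). It did not pass without F/F replicate 2 (0.84, adjusted p = 0.08029) or within pool KIUC033 (0.54, adjusted p = 0.371), which holds F/F replicates 1 and 2 alone.

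Eda2r (ENSMUSG00000034457.11) encodes a receptor of the tumour necrosis factor family that binds ectodysplasin A2. The F/F hearts had 4.66, 6.38, 13.4, 8.51 and 7.47 CPM, and the +/+ hearts 1.38 to 2.41 with a median of 2.07. Every F/F heart, replicate 1 included, was above every control. Eda2r had a log2 fold change of 1.95 ± 0.33 (adjusted p = 0.0001174), a 3.87-fold rise. Within pool KIUC033 it was 1.41 (adjusted p = 0.07583).

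The secreted ligand of the group is Gdf15 (ENSMUSG00000038508.8), a distant member of the TGF-beta family that acts on appetite through a receptor in the hindbrain. It had 0.673, 7.99, 23.2, 14 and 13.2 CPM in the F/F hearts, and 0.598 to 3.01 (median 1.33) in the +/+ hearts. Replicate 1 was near the bottom of the control range, and the 4 others were above its top. With a log2 fold change of 2.59 ± 0.47 (adjusted p = 0.0002381), or 6.02-fold, it showed the largest fitted rise of the 10. Within pool KIUC033 the log2 fold change was 2.18 (adjusted p = 0.1005).

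The remaining genes act in autophagy and nutrient sensing. Trp53inp1 (ENSMUSG00000028211.12) encodes a stress protein that binds LC3-type proteins of the autophagosome and promotes p53 activity. It had 25.6, 14.9, 22.1, 17.5 and 17.6 CPM in the F/F hearts and 4.41 to 13.0 (median 8.03) in the +/+ hearts, with no overlap. The log2 fold change was 1.42 ± 0.26 (adjusted p = 0.000278), and it was the one gene of the 10 that still passed within pool KIUC033 alone. Here replicate 1 had the highest value of the F/F hearts.

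Sesn2 (ENSMUSG00000028893.9) encodes sestrin 2, a leucine-sensing inhibitor of mTORC1 signalling. It had 1.96, 3.24, 6.91, 3.31 and 3.69 CPM in the F/F hearts and 1.42 to 2.96 (median 1.92) in the +/+ hearts. Replicate 1 lay within the control range and the 4 others lay above it. The log2 fold change of 0.85 ± 0.39 did not pass the test (adjusted p = 0.09797). It passed without F/F replicate 1 (1.24, adjusted p = 0.01828) and within pool KIUC035 (1.59, adjusted p = 0.04054).

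The F/F hearts of 2 weeks differed among themselves in a way that most of the 10 genes shared. Replicate 1 had the lowest F/F value for 8 of the 10 genes and the highest for Ccng1 and Trp53inp1. Replicate 3 had the highest value for the same 8 genes and the lowest for Ccng1. How often these hearts were the extremes among all genes, or among the genes that rose, was not counted. Summed macrophage markers also spanned a wide range over the 5 F/F hearts, from 740 to 3650 CPM. Relative to the mean of the +/+ hearts, replicate 1 had 0.48 times the Gdf15 and 1.20 times the Cdkn1a level, while replicate 3 had 16.5 times and 4.60 times. Eda2r was at 2.36 times in replicate 1 and 6.80 times in replicate 3, and Trp53inp1 at 3.24 and 2.81 times. Without F/F replicate 1, 8 of the 10 genes passed the test, those 6 with Bax and Sesn2. Replicate 1 was singled out by these same values, so that gain is no separate result. The share of all genes that passed in that fit is not given here.

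**Figure D2:**
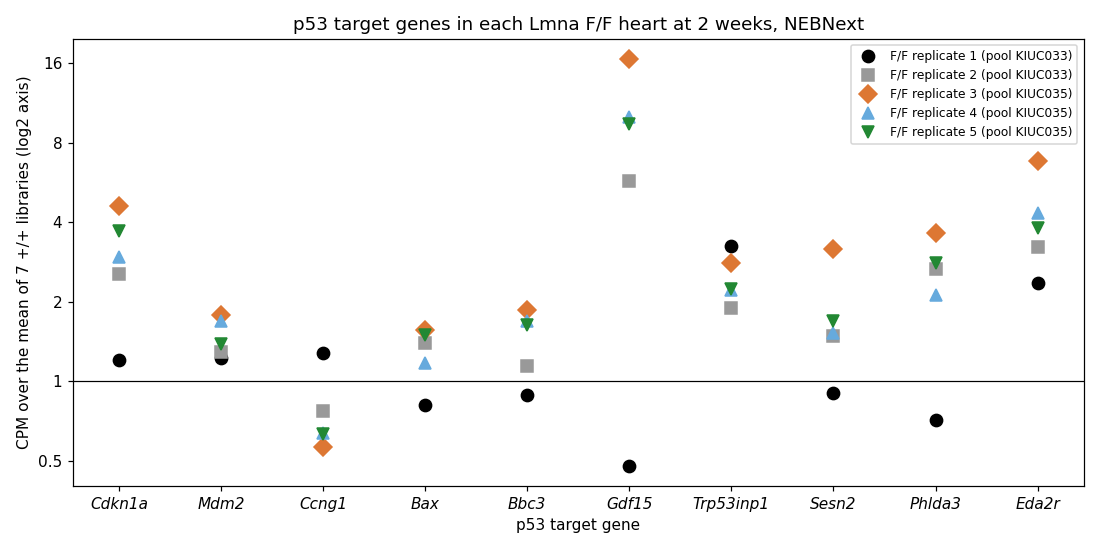
CPM of the 10 genes in each of the 5 Lmna F/F hearts of 2 weeks, divided by the mean of the 7 +/+ hearts (vertical axis, log2 scale; the line marks equal levels). Replicate 1 lies at 0.48 for Gdf15 and 3.24 for Trp53inp1, and replicate 3 lies at the top for 8 genes.

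Levels between genes can be compared only per transcript length, for which the deposited NEBNext TPM, which are scaled to gene length and library total, serve. In +/+ hearts of 2 weeks Ccng1 stood first at 299 ± 36.9 TPM (SD, n = 7). Bax (37.2 ± 2.68), Cdkn1a (34.8 ± 20.05), Mdm2 (21.5 ± 3.83) and Phlda3 (17.4 ± 4.60) followed. In that order each of the 4 overlapped the next within 1 SD. The low group held Bbc3 (2.53 ± 0.998), Trp53inp1 (2.36 ± 0.789), Gdf15 (1.53 ± 1.02), Sesn2 (1.01 ± 0.270) and Eda2r (0.675 ± 0.114), and there too each overlapped the next within 1 SD. In F/F hearts Ccng1 still stood first at 293 ± 53.9 TPM (n = 5), followed by Cdkn1a at 141 ± 76.1, Bax at 64.3 ± 22.2, Phlda3 at 57.0 ± 30.9 and Mdm2 at 42.2 ± 13.5. Gdf15 reached 17.9 ± 14.03 TPM. Sesn2 was the lowest in F/F hearts at 2.48 ± 1.56 TPM, with Eda2r at 3.82 ± 2.13.

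Other cell types moved with the 2-week result. All 10 macrophage markers were higher in F/F hearts, and their summed level was 740 to 3650 CPM against 441 to 673 in +/+ hearts. Of 8 cardiomyocyte markers 6 were lower, with a summed level of 42016 to 68739 against 83764 to 101973 CPM, so both sums were free of overlap. T and NK cell markers rose for 5 of 8 and fibroblast markers for 5 of 7, with Gsn lower. Of 5 atrial markers 1 rose, Nppa (1.64 ± 0.49, adjusted p = 0.01262), and 0 fell. The sums of these lists overlapped. In F/F against +/+ hearts they were 3.70 to 16.3 against 2.00 to 4.21 CPM for T and NK cell markers. Fibroblast markers had 2858 to 4257 against 2159 to 4057 CPM, and atrial markers 426 to 3224 against 321 to 1291. Of all genes, 16.2% were higher and 13% lower. The part of these shifts in the p53 target values was not tested. In RNA of whole hearts, fewer cells of a type and less RNA per cell cannot be told apart. Without TMM factors the median of all genes at 2 weeks moved from 0.04 to 0.29 on the log2 scale, and the share of higher among all calls from 55.6% to 84.2%. Relative to the median of all genes, the median of the 10 was then 0.95, against 0.91 with TMM.

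At 1 week, 0 of the 10 genes passed the edgeR test, where 0.0256% of all genes (4 of 15627) did. At an unadjusted p under 0.05 there was 1 of the 10, Mdm2, and 1539 of all genes. DESeq2 and limma-voom also called 0 of the 10, and over all genes DESeq2 called 3 as higher and 5 as lower. Mdm2 had 49.3, 52.7, 42.5 and 50.0 CPM in the F/F hearts and 54.1, 74.5, 67.6, 66.4 and 56.1 in the +/+ hearts. All 4 F/F values were below all 5 controls, as was so for 1.03% of all genes, in the direction opposite to 2 weeks (log2 fold change -0.39 ± 0.14, adjusted p = 0.3889). Cdkn1a had 26.3, 19.6, 18.9 and 11.2 CPM against 15.9, 14.4, 13.4, 21.3 and 8.03, with overlapping groups (0.36 ± 0.33, adjusted p = 0.7112). Gdf15 was scarce, at 0.620, 0.751, 1.55 and 0.425 CPM against 0.354, 0.357, 0.274, 0.223 and 0.688, and its log2 fold change of 1.16 ± 0.69 had an adjusted p of 0.5836. The 95% interval of that change ran from -0.19 to 2.50, so it held both no change and a rise as large as that of Cdkn1a at 2 weeks. Its upper end lay close to the 2.59 fitted for Gdf15 itself at 2 weeks. The difference between the Gdf15 effects at 2 weeks and 1 week, 1.43, did not pass the edgeR test.

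At 11 days, with 2 libraries labelled F/F and 3 labelled +/+, 0 of the 10 genes and 0% of all genes passed (edgeR). At an unadjusted p under 0.05 there were 1302 genes, among them 1 of the 10, Bbc3. DESeq2 and limma-voom called 0 of the 10. Over all genes DESeq2 called 5 as higher and 26 as lower. Without +/+ replicate 1, edgeR called 235 genes and still 0 of the 10. Phlda3 had 30.9 and 43.8 CPM in the F/F libraries against 18.9, 23.8 and 20.9 (log2 fold change 0.76 ± 0.37, adjusted p = 0.6058). Bbc3 had 3.90 and 4.75 against 2.73, 2.13 and 2.29 (0.82 ± 0.37, adjusted p = 0.5581). In these 2 genes both F/F libraries were above all controls, as was so for 7.04% of all genes. Cdkn1a (31.0 and 42.6 against 13.8, 43.9 and 56.2) and Gdf15 (1.35 and 2.31 against 0.834, 5.02 and 4.21) overlapped, and in both the library +/+ replicate 1 was the lowest. Median log2 fold changes at 11 days were -5.07 for 5 atrial markers and -1.53 for 7 smooth muscle and pericyte markers. They were -0.86 for 8 T and NK cell, -0.84 for 7 fibroblast, 0.04 for 10 macrophage and -0.08 for 8 cardiomyocyte markers. In each of these lists 0 passed. Summed atrial markers were at 476 to 491 CPM in F/F against 775 to 3077 in +/+ libraries. Their part in the p53 target values was not tested.

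The change of the F/F effect over time was tested as a difference of effects, since libraries of 1 week, of 11 days and of 2 weeks came from different sequencing pools and levels were not compared across times. Both differences use the 2-week libraries and are not independent. The effect at 2 weeks exceeded that at 1 week for 3 of the 10 genes, beside 6.52% of all genes. Mdm2 differed by 0.84 ± 0.18 on the log2 scale (adjusted p = 0.005477), Trp53inp1 by 1.65 ± 0.42 (adjusted p = 0.01258) and Eda2r by 1.58 ± 0.52 (adjusted p = 0.04456). The Eda2r difference was lost on leaving out any of 16 of the 21 libraries singly. It passed only without +/+ replicate 3 of 1 week, or F/F replicate 1 or +/+ replicates 2, 3 or 5 of 2 weeks, and was 1.30 to 1.89 over all 21. Without F/F replicate 1 of 2 weeks the count rose to 5, adding Gdf15 (2.02, adjusted p = 0.03019) and Phlda3 (1.10, adjusted p = 0.0156). Calls over all genes, in either direction, rose as well in that fit, from 1938 to 2966.

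The effect at 2 weeks exceeded that at 11 days for 2 of the 10 genes, beside 7.76% of all genes, namely Gdf15 (3.34 ± 0.81, adjusted p = 0.01159) and Mdm2 (0.74 ± 0.22, adjusted p = 0.03429). Their fitted effects at 11 days were negative, -0.75 for Gdf15 and -0.28 for Mdm2, and did not pass the test. The Mdm2 call was lost without F/F replicate 2 (0.75, adjusted p = 0.06207), F/F replicate 3 (0.63, adjusted p = 0.08202) or +/+ replicate 6 (0.71, adjusted p = 0.0666) of 2 weeks. It was also lost without +/+ replicate 1 (0.53, adjusted p = 0.08629), +/+ replicate 3 (0.75, adjusted p = 0.06158) or F/F replicate 2 (0.46, adjusted p = 0.3192) of 11 days. The Gdf15 call was lost without F/F replicate 2 of 2 weeks (2.54, adjusted p = 0.06868) or F/F replicate 1 of 11 days (2.80, adjusted p = 0.09845). Cdkn1a differed by 1.32 ± 0.52 and did not pass (adjusted p = 0.1001). It passed without F/F replicate 1 of 2 weeks (1.49, adjusted p = 0.04799) or without +/+ replicate 1 of 11 days (1.72, adjusted p = 0.008606), and without the latter Trp53inp1 passed as well (1.64, adjusted p = 0.02206). Calls over all genes, in either direction, rose from 1832 to 2773 in the first of these fits and to 3172 in the second. Atrial markers had a median of 4.38 for the same difference of effects, and 1 of 5 passed as higher.

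**Figure D3:**
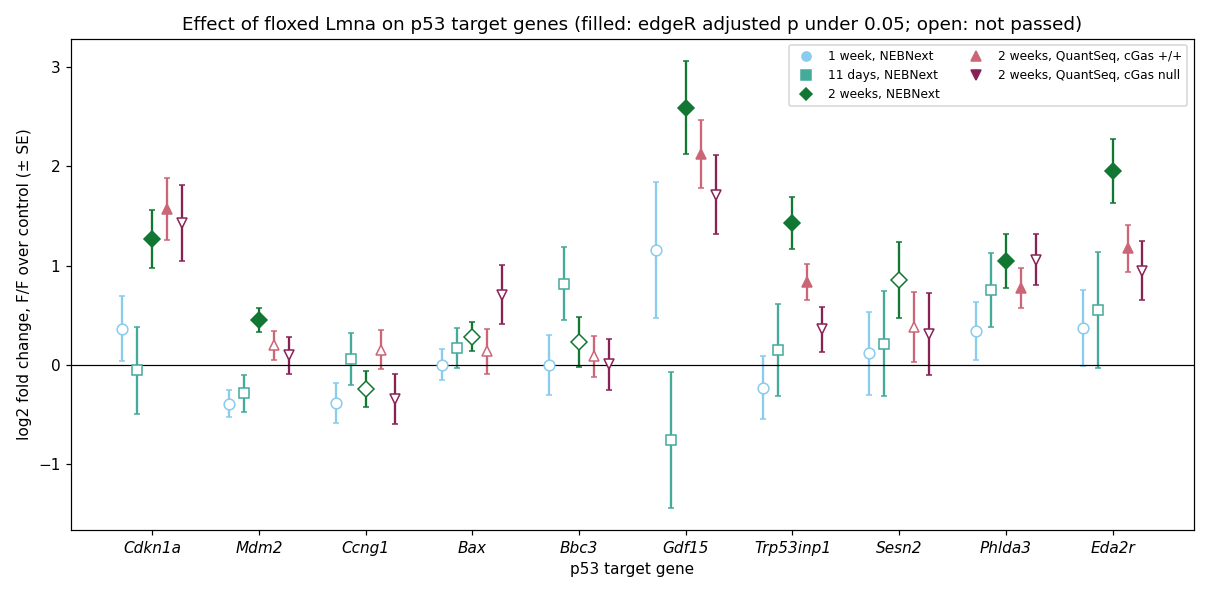
Fitted log2 fold change (± SE, vertical axis) of each p53 target gene in Lmna F/F hearts over their controls, in the 5 comparisons. Filled symbols passed the edgeR test and open symbols did not: 6 are filled at 2 weeks in NEBNext, 5 in QuantSeq with cGas, and none at 1 week, at 11 days or without cGas.

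In the QuantSeq set with cGas present, 5 of the 10 genes were higher in Lmna F/F than in Lmna F/+ hearts and 0 were lower, beside 3.74% of all 14812 genes tested that were higher. They were Gdf15, Cdkn1a, Eda2r, Trp53inp1 and Phlda3. The control here is heterozygous for floxed Lmna, unlike the +/+ control of the NEBNext set. The median log2 fold change of the 10 genes was 0.58, beside -0.01 over all genes. In 4 of them every F/F library was above every F/+ library, as was so for 2.39% of all genes.

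Cdkn1a had 28.5 to 48.7 CPM (median 38.8) in the 6 F/F hearts and 8.61 to 25.1 (median 11.5) in the 6 F/+ hearts. The groups did not overlap, and the log2 fold change was 1.57 ± 0.31 (adjusted p = 0.004812), or 2.97-fold. Gdf15 had 2.83 to 7.39 CPM (median 3.25) against 0.336 to 1.28 (median 0.694), also without overlap (2.12 ± 0.34, adjusted p = 0.001144; 4.35-fold). As in the NEBNext set, Gdf15 showed the largest rise of the 10.

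Trp53inp1 had 9.32 to 19.0 CPM (median 11.3) against 5.33 to 8.87 (median 6.45), with a log2 fold change of 0.83 ± 0.18 (adjusted p = 0.008579). Eda2r had 1.79 to 4.42 (median 2.65) against 0.725 to 1.57 (median 1.14) and rose by 1.17 ± 0.23 (adjusted p = 0.005295). Both were free of overlap. Phlda3 had 5.60 to 9.86 (median 7.61) against 2.98 to 6.36 (median 4.38), with 1 F/+ heart, replicate 4, inside the F/F range, and rose by 0.77 ± 0.20 (adjusted p = 0.02692). The Phlda3 call was lost on leaving out F/+ replicate 1 (0.78, adjusted p = 0.08636), 3 (0.64, adjusted p = 0.1259) or 5 (0.75, adjusted p = 0.05674). It was also lost without F/F replicate 1 (0.75, adjusted p = 0.055), 3 (0.69, adjusted p = 0.08067) or 5 (0.70, adjusted p = 0.07089).

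The other 5 genes did not pass with cGas present. Mdm2 ran from 20.1 to 31.8 CPM (median 26.5) in F/F and from 19.4 to 24.1 (median 23.0) in F/+ hearts (log2 fold change 0.20 ± 0.14, adjusted p = 0.4843). Its 95% interval, -0.08 to 0.48, holds the value fitted in the NEBNext set. Sesn2 was near the limit of what these libraries show, at 0.433 to 1.12 CPM against 0.284 to 0.630 (0.38 ± 0.35, adjusted p = 0.5941). Bax, Bbc3 and Ccng1 had log2 fold changes of 0.14 ± 0.23, 0.09 ± 0.20 and 0.16 ± 0.19, with adjusted p from 0.7156 to 0.8624.

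**Figure D4:**
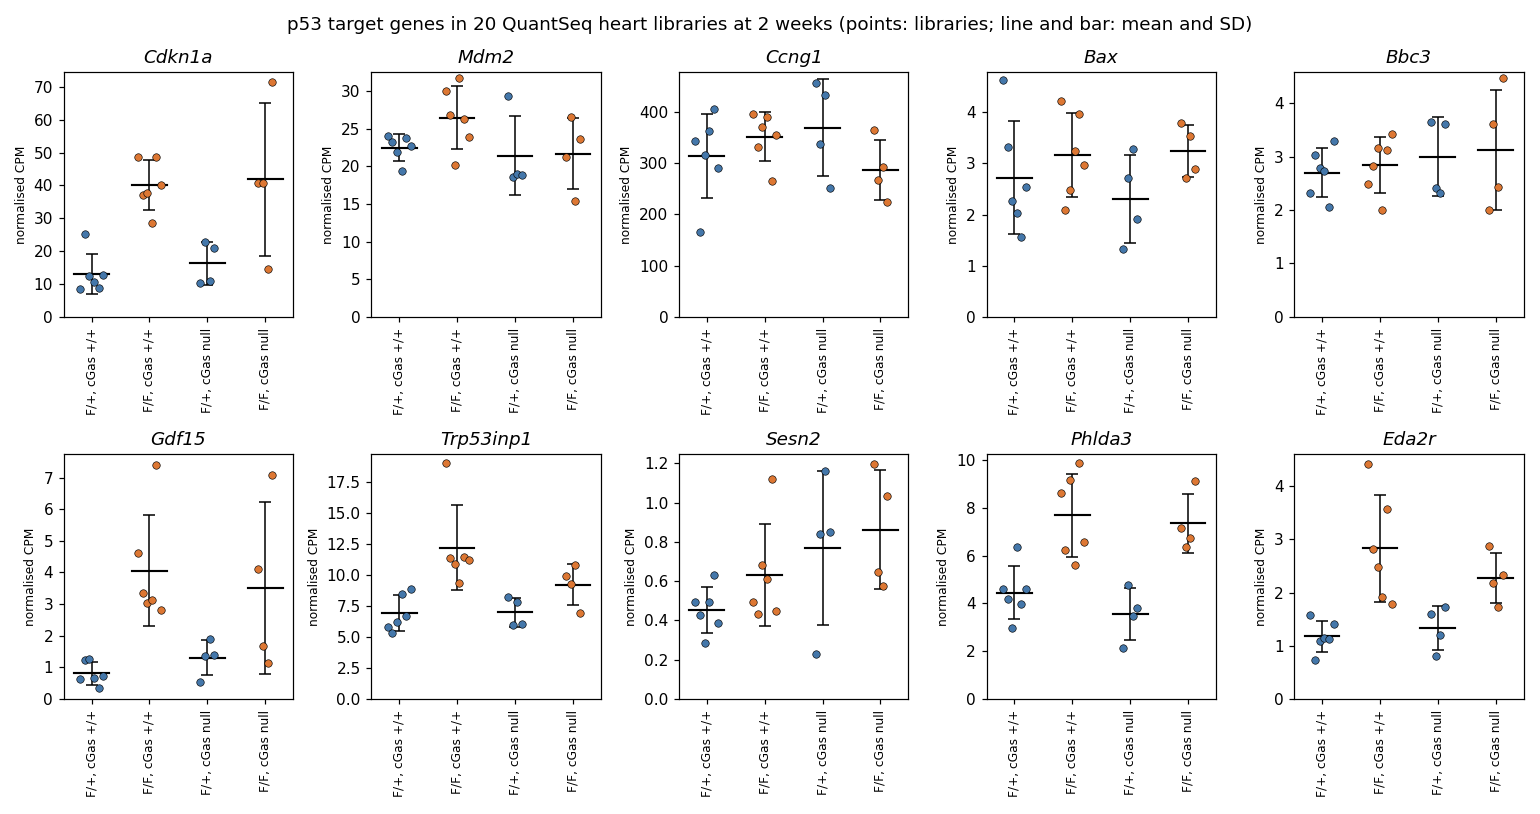
Normalised CPM (vertical axes, each from 0) of the 10 p53 target genes in the 20 QuantSeq libraries of 2 weeks, by Lmna and cGas genotype. Each point is a library, and lines and bars are the mean and SD. With cGas, the F/F points of Cdkn1a, Gdf15, Trp53inp1 and Eda2r lie above all F/+ points, and without cGas this is so for Phlda3.

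Whether the rise depends on cGas was addressed by the same comparison in cGas null mice. Cgas counts were lower in null than in cGas +/+ hearts, with means of 0.876 against 2.88 CPM in F/F (exact permutation p = 0.009524, two-sided) and 0.565 against 1.45 in F/+ hearts (exact p = 0.02857). In the null hearts 0 of the 10 genes passed (edgeR), beside 0.5% of all genes that were higher. At an unadjusted p under 0.05 there were 5 of the 10 and 1528 of all genes. DESeq2 called 3 of the 10, Cdkn1a, Gdf15 and Phlda3, and limma-voom 0. Over all genes DESeq2 called 229 as higher and 22 as lower, where edgeR called 74 and 4.

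Cdkn1a had 40.6, 40.7, 14.7 and 71.3 CPM in the 4 null F/F hearts and 10.4, 22.7, 11.0 and 20.8 in the 4 null F/+ hearts. F/F replicate 3 lay within the control range and the 3 others above it, and the log2 fold change was 1.43 ± 0.38 (adjusted p = 0.08362). Gdf15 had 4.11, 1.68, 1.15 and 7.07 CPM against 0.549, 1.38, 1.90 and 1.4 (1.71 ± 0.40, adjusted p = 0.05035). Phlda3 had 7.15, 6.38, 6.75 and 9.14 against 2.15, 4.78, 3.49 and 3.80, the one gene of the 10 without overlap here, beside 3.21% of all genes (1.06 ± 0.25, adjusted p = 0.05207).

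Eda2r had 2.88, 2.19, 1.73 and 2.32 CPM against 1.60, 0.803, 1.21 and 1.73 (0.95 ± 0.29, adjusted p = 0.156). Trp53inp1 had 9.91, 9.24, 10.8 and 6.94 against 8.18, 5.96, 7.84 and 6.05 (0.36 ± 0.23, adjusted p = 0.6605). Bax had 3.79, 2.72, 3.54 and 2.89 against 1.33, 2.71, 3.27 and 1.92 (0.71 ± 0.29, adjusted p = 0.3753). Ccng1, Mdm2, Bbc3 and Sesn2 had log2 fold changes between -0.34 and 0.31. Without null F/F replicate 3, Cdkn1a (1.64, adjusted p = 0.01827), Gdf15 (1.86, adjusted p = 0.01989) and Phlda3 (1.09, adjusted p = 0.04481) passed. Calls over all genes, in either direction, rose from 78 to 175 in that fit. Replicate 3 was female. The null F/F hearts were 2 males and 2 females and the null F/+ hearts 4 males, so the female F/F hearts had no control of their sex. Sex was adjusted by a term shared by all QuantSeq groups.

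The difference between the effects with and without cGas was tested directly and passed for 0 of the 10 genes and 0% of all genes (edgeR). At an unadjusted p under 0.05 there were 215 of all genes and 0 of the 10, and DESeq2 and limma-voom called 0 of the 10 as well. The null effect less the cGas +/+ effect was -0.14 for Cdkn1a (95% interval -1.11 to 0.83), -0.41 for Gdf15 (-1.44 to 0.62) and 0.29 for Phlda3 (-0.36 to 0.93). It was -0.23 for Eda2r (-0.98 to 0.53) and -0.47 for Trp53inp1 (-1.06 to 0.11). The intervals are wide beside the effects, so a missing call does not show that the effects were alike.

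Null and cGas +/+ hearts of the same Lmna genotype were also compared, with libraries shared with the comparisons above. In F/F hearts 0 of the 10 genes and 0% of all genes passed (edgeR), with 850 genes at an unadjusted p under 0.05. Among these was 1 of the 10, Trp53inp1, which was lower in the null hearts by a log2 fold change of -0.41 ± 0.19 (adjusted p = 0.8664). In F/+ hearts 0 of the 10 and 0% of all genes passed, with 616 genes and 0 of the 10 at an unadjusted p under 0.05. DESeq2 called 0 of the 10 in both, beside 1 higher and 4 lower of all genes in F/F hearts and 0 and 1 in F/+ hearts. The 4 null F/+ hearts were all male, while 4 of the 6 cGas +/+ F/+ hearts were female, and sex was a term of the fit.

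Macrophage markers moved in QuantSeq too. With cGas 9 of 10 were higher, at a summed 516 to 1376 CPM in F/F against 310 to 406 in F/+ hearts. Without cGas 3 of 10 were higher, at 344 to 756 against 284 to 498. Of 8 cardiomyocyte markers 0 passed in either, with medians of -0.36 with and -0.27 without cGas on the log2 scale and all 8 fitted below 0 in both. Their summed level was 20139 to 31530 CPM in F/F against 26786 to 44280 in F/+ hearts with cGas, and 21380 to 32017 against 27298 to 44338 without. Of 5 atrial markers 0 passed in either, with a median log2 fold change of 2.32 with cGas and -1.34 without, and -3.66 for the difference between the effects. Their summed level varied widely in every group, from 154 to 2385 CPM in F/F against 111 to 2275 in F/+ hearts with cGas and from 151 to 3910 against 118 to 1550 without. The part of these marker levels in the p53 target values was not tested.

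Trp53 and its regulators were counted from a list of their own. Trp53, which encodes p53, had a log2 fold change of 0.50 ± 0.23 at 2 weeks in NEBNext (adjusted p = 0.11), 0.21 ± 0.34 in QuantSeq with cGas (adjusted p = 0.7981) and 0.09 ± 0.42 without (adjusted p = 0.9718). Of 13 regulators and relatives of p53 tested at 2 weeks, Trp53 included, 1 rose and 0 fell, beside 16.2% and 13% of all genes. It was Chek1, a checkpoint kinase (1.36 ± 0.41, adjusted p = 0.01452). In QuantSeq 0 of 12 passed with cGas and 0 of 12 without.

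A list of 32 further p53 targets was counted too. At 2 weeks in NEBNext 9 rose, 4 fell and 19 did not pass, beside 16.2% of all genes that rose and 13% that fell. Their median log2 fold change was 0.30 beside 0.04 over all genes. The largest rises were those of Gtse1, a microtubule protein of dividing cells (2.43 ± 0.42, adjusted p = 0.000167), Pmaip1, which encodes the BH3-only protein Noxa (2.19 ± 0.61, adjusted p = 0.009118), and Psrc1, a spindle protein (1.72 ± 0.47, adjusted p = 0.007952). The largest falls were those of Ak1, the adenylate kinase of muscle (-0.96 ± 0.14, adjusted p = 2.883e-05), Sesn1, the sestrin 1 gene (-0.71 ± 0.18, adjusted p = 0.003886), and Tigar, a fructose bisphosphatase (-0.69 ± 0.14, adjusted p = 0.0008345). In QuantSeq with cGas 1 of 30 rose, Dram1, a lysosomal membrane protein linked to autophagy (0.82 ± 0.24, adjusted p = 0.04495), beside 3.74% of all genes, and 0 fell. Without cGas 0 of 30 passed. At 1 week and at 11 days 0 passed.

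**Figure D5:**
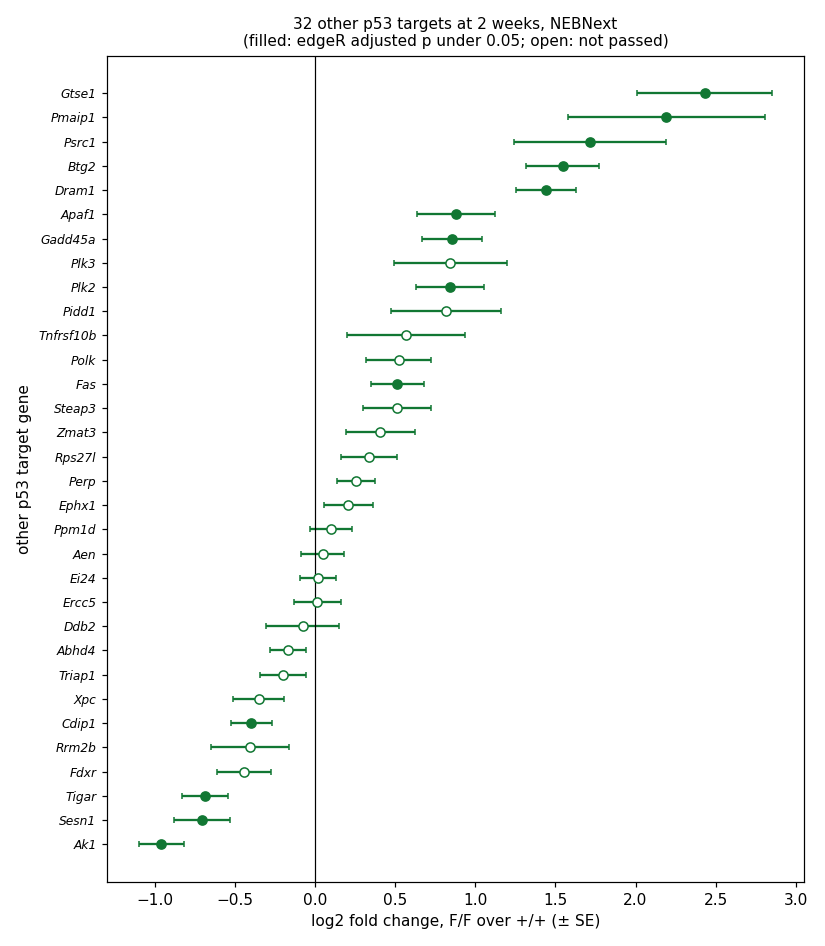
Fitted log2 fold change (± SE, horizontal axis) of the 32 further p53 targets in Lmna F/F over +/+ hearts at 2 weeks, in order of size. Filled points passed the edgeR test: 9 are higher, up to Gtse1 at 2.43, and 4 are lower, down to Ak1 at -0.96.

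Genes next to the 10 in function were counted as well. p21 lowers many cell cycle genes through the DREAM repressor complex. Of 12 such genes 12 rose at 2 weeks in NEBNext beside 16.2% of all genes, with a median of 2.08, among them Bub1 (2.62 ± 0.58, adjusted p = 0.001466), Plk1 (2.35 ± 0.36, adjusted p = 5.015e-05) and Top2a (2.31 ± 0.33, adjusted p = 2.246e-05). In QuantSeq 6 of 11 rose with cGas, beside 3.74% of all genes, led by Ccnb1 (1.36 ± 0.32, adjusted p = 0.01807), and 1 of 11 without, beside 0.5%, Birc5 (1.501 ± 0.34, adjusted p = 0.04419). Of the other CDK inhibitors of the Cip/Kip and INK4 families, 0 of 6 rose at 2 weeks and 1 fell, beside 16.2% and 13% of all genes. It was Cdkn1c (-0.64 ± 0.15, adjusted p = 0.002592), which encodes p57.

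Genes of the integrated stress response, a further inducer of Gdf15 and Sesn2, rose for 3 of 10 at 2 weeks in NEBNext, beside 16.2% of all genes. They were Psat1, an enzyme of serine synthesis (2.65 ± 0.26, adjusted p = 5.737e-07), Atf3, a stress-induced transcription factor (1.39 ± 0.52, adjusted p = 0.04473), and Asns, asparagine synthetase (0.79 ± 0.22, adjusted p = 0.009935). Atf3 (1.85 ± 0.34, adjusted p = 0.003303) and Psat1 (1.64 ± 0.22, adjusted p = 0.0002735) were also the 2 of 11 that rose in QuantSeq with cGas, beside 3.74% of all genes. Psat1 was the 1 of 11 that rose without cGas (1.42 ± 0.28, adjusted p = 0.02149).

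In the BCL-2 family, 2 of 12 genes rose and 1 fell at 2 weeks in NEBNext, beside 16.2% and 13% of all genes. Bcl2a1b, an anti-apoptotic gene of white blood cells with near-identical copies that can share its reads, rose by 2.92 ± 0.50 (adjusted p = 0.0001567). Bid, a BH3-only gene, rose by 1.10 ± 0.28 (adjusted p = 0.004441), and Bik, another, fell by 0.62 (adjusted p = 0.02488). Bcl2a1b was also the one that rose in QuantSeq with cGas (2.20 ± 0.37, adjusted p = 0.001692) and without (2.56 ± 0.48, adjusted p = 0.02006). Among 7 tested relatives of Sesn2, Ccng1, Trp53inp1, Phlda3 and Eda2r, 0 rose at 2 weeks in NEBNext and 2 fell, again beside 16.2% and 13% of all genes. They were Sesn1 and Trp53inp2 (-0.66 ± 0.14, adjusted p = 0.0009094), the paralog of Trp53inp1. Of 6 tested in QuantSeq 0 passed with or without cGas.

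Likeness to Cdkn1a was measured as the root mean square difference of log2 fold changes over the 5 Lmna comparisons among 13656 genes tested in both kits. It is a description over comparisons, of which each has its own controls. The 3 nearest genes outside the 10 were 1500015A07Rik (0.205), Dok3 (0.219), an adaptor protein of myeloid and B cells, and Atf3 (0.232). Dok3 had log2 fold changes of 0.41, 0.22, 1.56, 1.33 and 1.30 at 1 week, 11 days, 2 weeks, with cGas and without cGas. Those of Cdkn1a were 0.36, -0.05, 1.27, 1.57 and 1.43 in the same order. The 3 genes were picked by these same values, so their likeness to Cdkn1a is no separate result. The nearest of the 10 was Eda2r (0.495), which ranked 220, and the farthest was Ccng1 (1.26), which ranked 9344.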

How the data were processed

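Raw read counts per gene for the 46 libraries were deposited by the authors, with a second table of normalised values. Its NEBNext columns are deposited TPM, and its QuantSeq columns, though deposited under the same name, are CPM of the authors' counts. The submitters' processing notes name STAR 2.7.9 and the build mm39. Not given in the sources used here are the counting tool, its annotation and its strand setting, so reads of overlapping genes and of near-identical copies may be shared.

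Genotype and time from the labels defined the groups. The labels do not state separate mice, so p-values measure the spread between libraries, which may be technical. Replicates are numbered in sample order. Of 93 pairs of replicates none agreed within sampling noise (lowest chi-square per degree of freedom 9.02).

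Counts were fitted per kit in R 4.3.3 with edgeR 4.0.16: filterByExpr (minimum count 10, total 15), TMM scaling and the quasi-likelihood test, with sex and, at 2 weeks, pool (KIUC033 or KIUC035) as covariates and Benjamini-Hochberg adjustment over all genes tested (threshold 0.05). A single pool held all libraries of 1 week, and another those of 11 days, so pool and time cannot be told apart. Normalised CPM use the TMM-scaled totals. The test was checked on counts simulated with known changes. Lmna and Cgas levels were compared between groups with exact permutation tests. Alternatives were DESeq2 1.42.0, limma-voom (limma 3.58.1), no filter, no TMM factors, no sex or pool term, 1 pool or 2 groups alone, the deposited values on a log2 scale with pseudocounts of 1 and 0.1, and leaving out each library.

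The 10 genes and the gene lists were chosen with earlier results of these data known. Named were the 10 genes, Trp53, Lmna and Cgas, in each list up to 3 genes per direction with the largest change among those that passed in a main comparison, the 3 genes nearest to Cdkn1a, and libraries that were the extreme of a group for 6 or more of the 10. Gsn was named as the 1 fibroblast marker that was lower, and Trp53inp2 and Sesn1 follow the rule. Promoter windows are those of the RefSeq table for GRCm38.p6.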

Additional observations from a re-analysis of the deposited data

Results flagged for a closer look

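Single libraries stood apart from the rest of their group, by the gap to the nearest library over the range of the group, in 8 of 80 groups of 4 to 10 libraries (10 genes in each group of that size). Chance alone gives about 1 in 20. In +/+ hearts of 1 week replicate 1 was high for Bax at 22.6 CPM and for Bbc3 at 4.87 CPM, and replicate 5 for Gdf15 at 0.688 CPM. In F/F hearts of 1 week replicate 1 was high for Sesn2 at 3.10 CPM. In QuantSeq hearts with cGas, F/+ replicate 2 was high for Cdkn1a at 25.1 CPM, F/F replicate 5 for Sesn2 at 1.12 CPM and F/F replicate 1 for Trp53inp1 at 19.0 CPM. In F/+ hearts without cGas, replicate 1 was high for Mdm2 at 29.4 CPM.

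The F/F effect differed between times, by the test of the difference itself, in 5 cases on the log2 scale. From 1 week to 2 weeks the effect on Mdm2 was larger by 0.84, on Trp53inp1 by 1.65 and on Eda2r by 1.58. From 11 days to 2 weeks it was larger by 0.74 for Mdm2 and by 3.34 for Gdf15. Some of the earlier fitted effects were negative, though none passed: Mdm2 at 1 week (-0.39) and 11 days (-0.28), Trp53inp1 at 1 week (-0.23) and Gdf15 at 11 days (-0.75). Each time had its own sequencing pools, and time and pool cannot be told apart.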

How the results depend on the processing

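Single-gene values of the 10 were recomputed under each alternative: 2027 values kept their side of the threshold, 36 gained the call and 46 lost it. Where neither fit passed, the sign could change, as for Ccng1 at 2 weeks in NEBNext (-0.24, and 0.04 with deposited TPM). A direction was read only for values that passed the test in at least 1 of the fits compared, and 0 of those reversed. The count of 10 p53 targets called at 2 weeks in NEBNext was 6 and fell to 1 within pool KIUC033 (2 F/F and 5 +/+ libraries); it was 5 to 8 on leaving out a library. The 2-week effect exceeded that of 11 days for 2 genes, for 4 with deposited TPM and a pseudocount of 1, for 1 with a pseudocount of 0.1, and for 0 to 3 on leaving out a library. It exceeded that of 1 week for 3 genes, and for 2 to 5 on leaving out a library. In QuantSeq with cGas the count was 5, and 2 in male libraries only, an alternative chosen after seeing the data; it was 4 to 5 on leaving out a library. Without cGas it was 0, but 3 with DESeq2, 3 with no filter on low counts, 1 with library totals without TMM factors, 3 with only the libraries of the 2 groups compared, 2 in male libraries only and 0 to 3 on leaving out a library. Over all genes, 74 were called as higher without cGas with edgeR, 229 with DESeq2 and 139 with library totals without TMM factors. The cause of these changes was not tested, beyond the smaller number of libraries where some were left out. No paired analysis was possible because the labels give no replicate number shared between groups; numbers in the titles are all different. Gdf15, Eda2r, Sesn2 and Bbc3 lay at a few CPM in controls, which limits precision, and 11 days rests on 2 and 3 libraries.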
